A study of Triticum aestivum with 6 samples.

Results

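Tubulins are the building blocks of microtubules and profilin is a small partner of actin. The 12 probe sets described here are all those that the platform annotation pairs with exactly 1 gene whose symbol or RefSeq synonym starts with TUB or names a profilin. They make up 12 of 61179 probe sets tested and belong to 7 of the 771 genes that the annotation names: the alpha-tubulin TUBA, the beta-tubulins tubb1, tubb2, tubb3, Tubb4 and Tubb5, and 1 profilin gene with the synonyms PRO1, PRO2 and Pro7. Values come from embryos of the bread wheat (Triticum aestivum) genotype AC Domain, taken from mature seeds after 48 h of imbibition, that is, of water uptake. Until flowering the mother plants were kept at 22 °C in the 16 h of light and 18 °C in the 8 h of darkness, and the seeds then developed at 13 °C on one group of plants and at 28 °C on the other. Each temperature had 3 arrays, labelled as biological replicates, and nothing says whether these came from separate plants or seed lots, so p-values measure only the spread between these arrays, part of which may be technical. Both groups share genotype, growth before flowering and imbibition, and they differ in the temperature under which the seed formed.

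Microtubules are hollow filaments assembled from dimers of alpha- and beta-tubulin. In plant cells they guide the laying down of cellulose in the growing wall and form the arrays that place and separate chromosomes and build the new wall during division. Plants carry several genes for each subunit, called isotypes, whose proteins are very alike and whose transcripts differ between tissues. Profilin binds actin monomers and steers their addition to actin filaments, the other main cytoskeletal system, which carries vesicles to growing cell surfaces. In a germinating embryo both systems serve the cells of the root and shoot as they elongate and then divide.

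Values are on the log2 scale, 1 per probe set and array, as the authors computed them with RMA, and a difference is always 13 °C minus 28 °C, so that a negative one means a lower signal in embryos of seeds formed in the cold. Each difference was tested with limma across all 61179 probe sets, and adjusted p means Benjamini-Hochberg adjusted over all of them, with a threshold of 0.05. All 12 probe sets gave bright signals: each lay above at least 95.9% of the tested probe sets, far over the 4.71 of the highest of 23 control probe sets for transcripts that were not added. In bulk tissue, fewer cells of a type and less RNA per cell cannot be told apart.

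Most of the tubulin and profilin probe sets gave lower signals after cold seed development. The 12 probe sets are not independent, as they read 7 genes. With only the brightest probe set of each gene, 6 fell and 0 rose, but this choice leaves out the TUBA probe set that rose. A fall passed the test for 10 of the 12 probe sets and a rise for 1, the remaining one missed the threshold, and the median difference was -0.9996; over all tested probe sets 15.1% fell and 18.5% rose, with a median of 0.062. A fall of at least 2-fold was found for 6 of the 12, against 5.62% of all probe sets, and a rise of that size for 1, against 3.68%. All 3 arrays at 13 °C lay below all 3 at 28 °C for 11 of the 12 (18.7% of all probe sets), and above them for the remaining one (25.6%). Because bright probe sets pass the test more often, the same shares were taken over the 2507 probe sets at least as bright as the dimmest of the 12: 32.1% fell, 35.6% rose, 10.1% fell and 10.8% rose by at least 2-fold, 39.8% had all 13 °C arrays lowest and 42.8% highest, and the median difference was 0.029. That brighter background was added after the data were seen. Among the 1273 probe sets paired with exactly 1 gene, from which the 12 were taken, 369 fell and 253 rose, and 174 fell by at least 2-fold. Their median difference was -0.024. Falls outnumbered rises there, unlike over all tested or over bright probe sets.

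**Figure D1:**
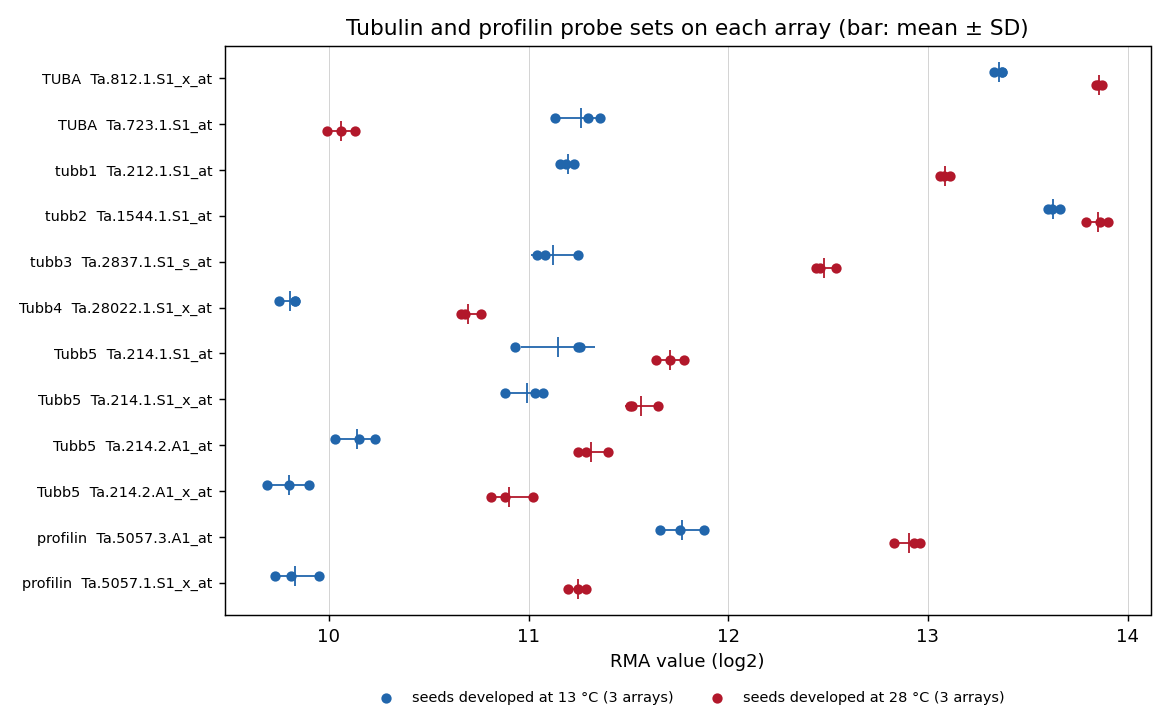
RMA values (log2, horizontal axis) of the 12 tubulin and profilin probe sets on each of the 6 arrays, with blue points for 13 °C, red points for 28 °C and a bar for the mean ± SD of 3 arrays. The blue points lie to the left of the red ones in 11 rows and to the right only for TUBA probe set Ta.723.1.S1_at; the gap is widest for tubb1 and narrowest for tubb2.

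**Figure D2:**
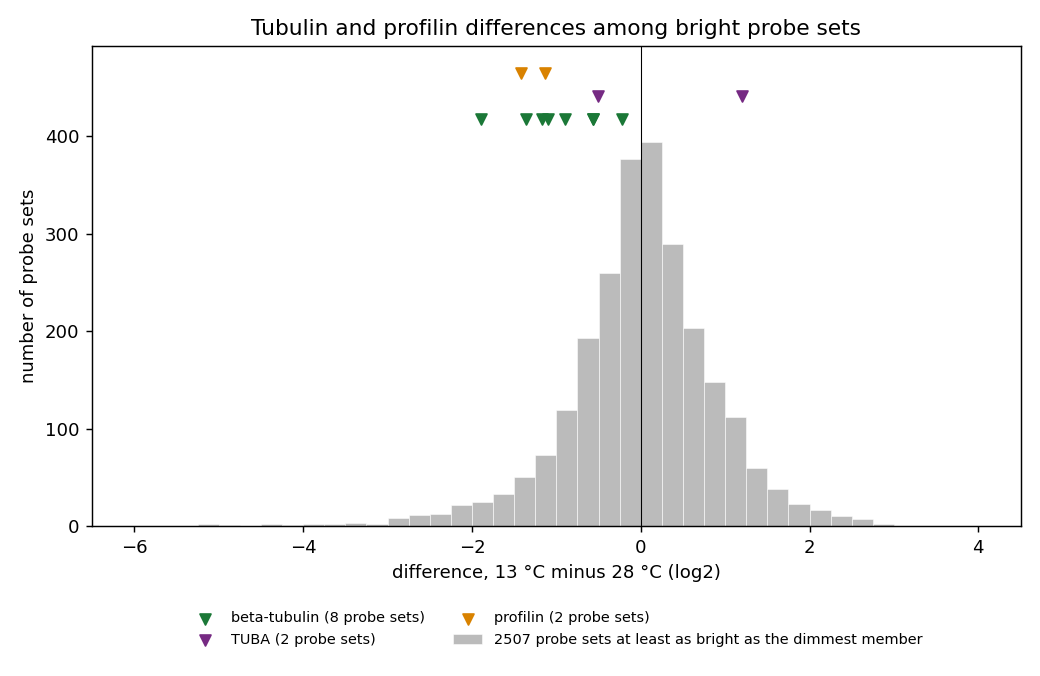
Distribution of the difference between temperatures (13 °C minus 28 °C, log2, horizontal axis) over the 2507 probe sets at least as bright as the dimmest tubulin or profilin probe set, as grey bars of counts, with triangles for the 12 tubulin and profilin probe sets. The grey distribution is centred near its median of 0.029, all triangles for beta-tubulin and profilin lie to the left of 0, and those for TUBA lie on either side.

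Among the beta-tubulins, tubb1 (LOC543257, probe set Ta.212.1.S1_at) fell the most. Its values were 11.16, 11.23 and 11.19 on the 13 °C arrays and 13.11, 13.06 and 13.08 on the 28 °C arrays. The 2 sets of values are far apart and each spans less than 0.1. The means were 11.20 ± 0.04 (SD, n = 3) and 13.08 ± 0.03, a difference of -1.89 ± 0.08 (SE; limma adjusted p = 5.3e-07), or 3.70-fold lower. Only 2.03% of all probe sets had a lower difference.

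The isotype tubb3 (LOC543473, Ta.2837.1.S1_s_at) came next. It read 11.04, 11.25 and 11.08 at 13 °C against 12.46, 12.44 and 12.54 at 28 °C, again with no overlap. The difference was -1.36 ± 0.09 (limma adjusted p = 6.7e-06), 2.56-fold lower. Tubb4 (LOC543260, Ta.28022.1.S1_x_at) read 9.83, 9.83 and 9.75 against 10.76, 10.66 and 10.68. This is a fall by 0.89 ± 0.08 (limma adjusted p = 4e-05), 1.86-fold, with the groups apart.

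Tubb5 (LOC543261) was read by 4 probe sets on 2 design sequences, and the size of its fall depended on the design. On the first, Ta.214.1.S1_at gave 11.26, 11.25 and 10.93 at 13 °C and 11.71, 11.78 and 11.64 at 28 °C, a difference of -0.56 ± 0.11, and Ta.214.1.S1_x_at gave -0.57 ± 0.09. On the second, Ta.214.2.A1_at gave 10.23, 10.15 and 10.03 against 11.29, 11.40 and 11.25, a difference of -1.17 ± 0.09, and Ta.214.2.A1_x_at gave -1.10 ± 0.10. All 4 fell, with limma adjusted p between 1.6e-05 and 0.0035. Within each array the gap between Ta.214.1.S1_at and Ta.214.2.A1_at was wider at 13 °C by 0.61, with no overlap between temperatures, and the gap between the pair of probe sets on the same design changed by 0.0085 for the first and -0.070 for the second, with overlap. The lowest of the 13 °C values on the first design was that of array 3.

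Signals for tubb2 (LOC543258, Ta.1544.1.S1_at) differed little. Its signal lay above that of 99.9% of the tested probe sets, at 13.66, 13.60 and 13.62 at 13 °C and 13.79, 13.90 and 13.86 at 28 °C. The groups did not overlap, but the difference of -0.22 ± 0.08 missed the threshold (limma adjusted p = 0.069), and its 95% interval runs from -0.41 to -0.036. The call depends on the fit: with dim probe sets left out the same difference had an adjusted p of 0.043, and with a trended and robust prior 0.003. With arrays scaled to the hybridisation controls it fell by 0.85. On the deposited scale the interval excludes falls of the sizes measured for tubb1, tubb3 and Tubb4.

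The alpha-tubulin TUBA was read by 2 probe sets that moved in opposite directions. Ta.723.1.S1_at rose: it read 11.36, 11.30 and 11.13 at 13 °C and 9.99, 10.13 and 10.06 at 28 °C, a difference of 1.20 ± 0.09 (limma adjusted p = 1.6e-05), 2.30-fold higher. It is the only one of the 12 that was higher after cold development, and 97.9% of all probe sets had a lower difference. Ta.812.1.S1_x_at fell: it read 13.37, 13.37 and 13.33 against 13.87, 13.84 and 13.85, a difference of -0.50 ± 0.08 (adjusted p = 0.00098). Within each array the gap of Ta.812.1.S1_x_at over Ta.723.1.S1_at changed by -1.70 with no overlap between temperatures (exact two-sided permutation p = 0.1, the smallest that 3 against 3 arrays allow). The annotation is old and pairs both with the same gene, although the array design placed them in separate transcript clusters, Ta.723 and Ta.812. With no probe sequences used here, which alpha-tubulin transcript each detects was not settled.

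Profilin (LOC543315) fell on both of its probe sets. Ta.5057.3.A1_at read 11.66, 11.88 and 11.76 at 13 °C and 12.96, 12.83 and 12.93 at 28 °C, a difference of -1.14 ± 0.09 (limma adjusted p = 2e-05), 2.20-fold lower. Ta.5057.1.S1_x_at read 9.73, 9.81 and 9.95 against 11.29, 11.20 and 11.25, a difference of -1.42 ± 0.09 (adjusted p = 5.3e-06), 2.67-fold lower. Both falls lie between those of Tubb4 and tubb1, and neither group of arrays overlaps the other. Actin, the protein that profilin binds, was read here only by 4 control probe sets, which differed by -0.038 to -0.22. Other probe sets for actin, which the annotation may leave unnamed, were not looked for, so these values do not describe actin transcripts as a whole. The largest of these belonged to the 3-prime probe set, which was below the highest unspiked control at both temperatures, and the others, above that control, differed by -0.083 (5-prime), -0.038 and -0.19 (both middle) with exact two-sided permutation p = 0.6, 0.7 and 0.2. Their levels ran from 3.70 to 6.72 at 13 °C and from 3.92 to 6.80 at 28 °C.

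**Figure D3:**
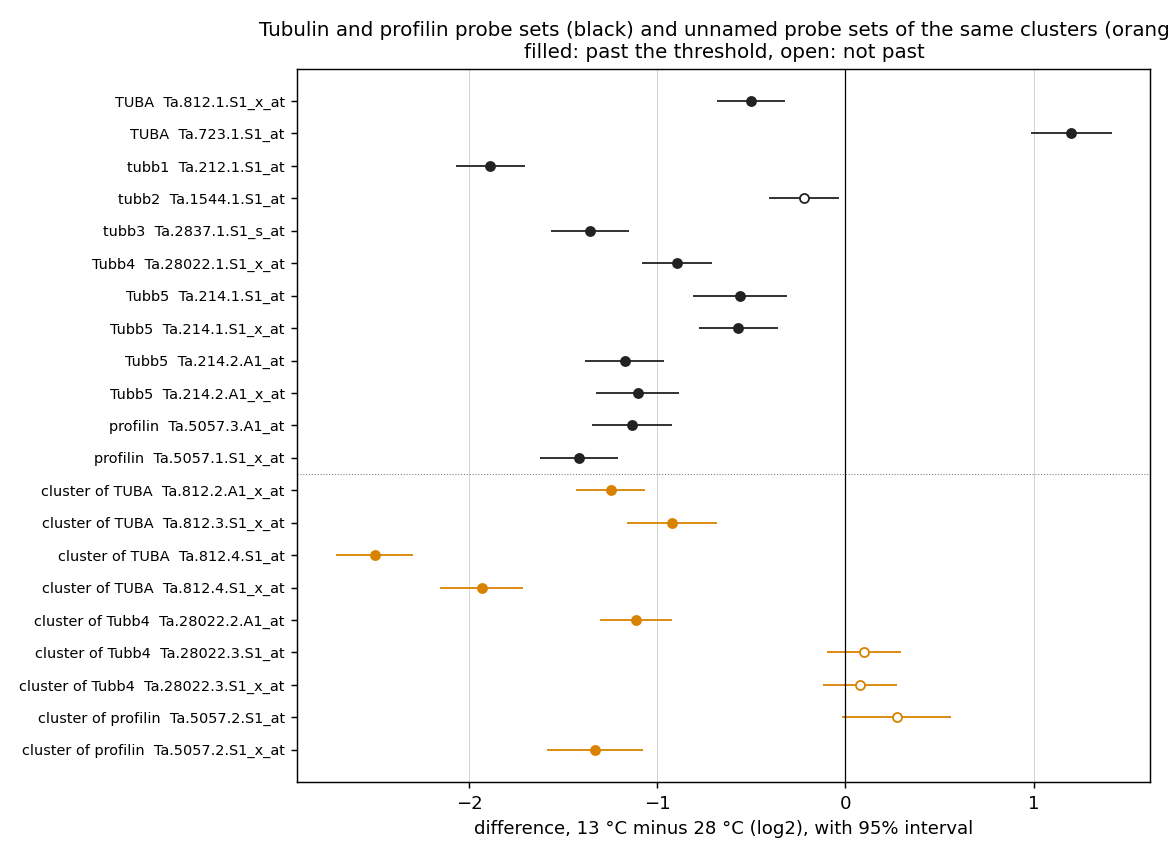
Difference between temperatures (13 °C minus 28 °C, log2, horizontal axis) with its 95% interval from limma for the 12 tubulin and profilin probe sets in black and for 9 unnamed probe sets of the same array clusters in orange, filled where past the threshold. Only TUBA Ta.723.1.S1_at lies to the right of 0 with a filled point, and the lowest point is Ta.812.4.S1_at at -2.50.

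The array holds further probe sets in the transcript clusters of these genes, which the annotation leaves unnamed. There were 9 in the clusters Ta.812, Ta.28022 and Ta.5057, of which 6 fell, 0 rose and 3 did not pass. Over all tested probe sets 15.1% fell and 18.5% rose, and over the 2507 bright ones 32.1% fell and 35.6% rose. They are not given the gene's name here, since a cluster can hold transcripts of related genes. In cluster Ta.812, that of the falling TUBA probe set, all 4 fell, by 0.92 to 2.50. The lowest, Ta.812.4.S1_at, read 9.99, 10.04 and 9.87 at 13 °C against 12.56, 12.43 and 12.42 at 28 °C, a difference of -2.50 ± 0.09 (limma adjusted p = 2.6e-07) or 5.67-fold, past that of tubb1. The rising TUBA probe set is the sole one of its cluster.

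Cluster Ta.28022, that of Tubb4, split. Ta.28022.2.A1_at fell by 1.11 ± 0.08, close to the 0.89 of Tubb4 itself, with 10.05, 10.07 and 9.95 against 11.10, 11.20 and 11.11. Ta.28022.3.S1_at read 11.86, 11.89 and 11.77 against 11.66, 11.77 and 11.80, with overlapping groups and a difference of 0.098 (95% interval -0.10 to 0.30), and its companion Ta.28022.3.S1_x_at differed by 0.075 (-0.12 to 0.27). Both of these stood between 11.74 and 12.16 on average, far above the highest unspiked control. In the profilin cluster Ta.5057.2.S1_x_at fell by 1.33 ± 0.11, between the falls of both profilin probe sets. Ta.5057.2.S1_at stood at 3.04 against 2.77, under the highest unspiked control, and shows no usable level.

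To ask whether isotypes moved by different amounts, the gap between the log2 values of each pair of genes was taken within each array and compared between temperatures. Such a gap is unchanged when all log2 values of an array shift by the same amount, and it compares changes, not levels. It can still depend on the quantile normalization within RMA, which need not move probe sets of unlike brightness by the same amount. Each gene was represented by its brightest probe set, which for TUBA is the falling one. Of the 21 pairs, 20 had gaps that did not overlap between temperatures, each with exact two-sided permutation p = 0.1 and an adjusted p of 0.105 over the 21 pairs. The design cannot reach 0.05, so these are sizes set against the array spread and not calls. The 21 pairs were built from 7 probe sets, and the share of such pairs among other bright probe sets was not computed. Singly, 39.8% of the 2507 bright probe sets had all 13 °C arrays lowest and 42.8% had them highest. The count of 20 is therefore not read as particular to these genes.

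The largest change was between tubb1 and tubb2: tubb1 minus tubb2 was -2.43 ± 0.06 (SD, n = 3) at 13 °C and -0.77 ± 0.08 at 28 °C, a change of -1.67, so that tubb1 fell 3.17-fold further than tubb2. Against tubb3 the gap of tubb1 changed by -0.53, being 0.60 ± 0.06 at 28 °C and 0.08 ± 0.08 at 13 °C, and against Tubb4 by -0.99. The order from the largest fall to the smallest was tubb1, tubb3, profilin, Tubb4, Tubb5, TUBA and tubb2. Neighbours in that order differed by 0.53, 0.22, 0.24, 0.33, 0.06 and 0.28, and the gaps overlapped for one neighbouring pair, TUBA and Tubb5, where the change was 0.06 (exact permutation p = 0.7). With all probe sets of a gene averaged, TUBA minus Tubb5 changed by 1.20 with no overlap, while the gaps overlapped for Tubb4 and Tubb5 (-0.042) and for tubb3 and profilin (-0.083). With TUBA represented by its rising probe set, an alternative chosen after seeing the data, TUBA minus tubb1 changed by 3.09, TUBA minus tubb2 by 1.42 and TUBA minus Tubb5 by 1.76.

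**Figure D4:**
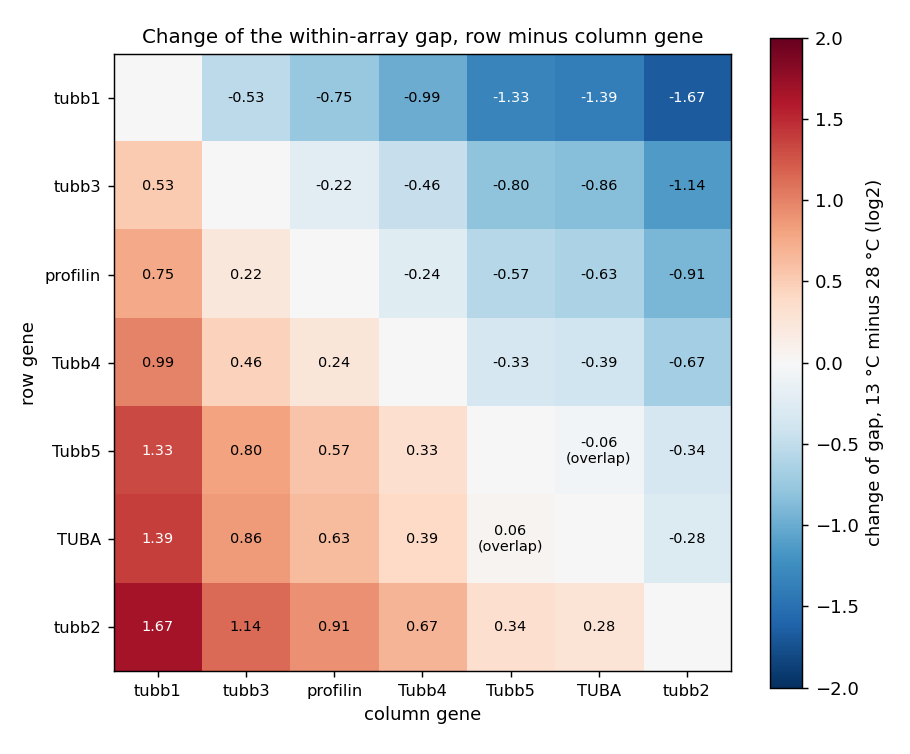
Change of the within-array gap between 2 genes (13 °C minus 28 °C, log2), row gene minus column gene, with each gene shown by its brightest probe set and genes ordered by the size of their fall. Blue cells mean that the row gene fell further; the darkest cell is tubb1 against tubb2 at -1.67, and the pair TUBA and Tubb5 overlapped between temperatures at 0.06.

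The smallest changes sat with the brightest signals. Both tubb2 and TUBA Ta.812.1.S1_x_at had a mean between 13 and 14, and the 197 tested probe sets in that range had a median absolute difference of 0.21, with a 5th percentile of -0.60 and a 95th of 0.97. Among the 739 probe sets between 11 and 12 the median absolute difference was 0.51 and the 5th percentile -1.54. The median absolute difference was 0.45 for the 346 probe sets between 12 and 13, where tubb1 lies. The part of signal brightness in the small differences of tubb2 and TUBA was not tested.

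The direction of the calls did not rest on a single array. With any 1 of the 6 arrays left out, 10 probe sets fell and 1 rose. The counts were the same with 13 °C arrays 1 and 2 both left out, where the 1 array kept at 13 °C is assumed to vary like those at 28 °C. Of the 6 probe sets with the suffixes _x_at or _s_at, which mark probes that can bind several transcripts, 6 fell. Of the other 6, 4 fell, 1 rose and 1 did not pass. The TUBA probe set that fell has the suffix _x_at and the one that rose has neither suffix. Both tubb3 and Tubb4 were read only by probe sets with such a suffix, so their direction without it is not known. Scaling to spiked-in controls changed the balance. Over all probe sets 55.1% of calls were higher at 13 °C with the deposited values, 5.25% with arrays scaled to the hybridisation controls and 6.63% with the poly-A controls, which put the median difference of all probe sets at -0.56 and -0.39. Both control sets were highest on 13 °C array 1, at 12.07 and 9.57. Under the first scaling 11 of the 12 fell and 0 rose, at a median of -1.63, and the TUBA rise shrank to 0.57 (limma adjusted p = 0.16). Under the second 4 fell and 0 rose at a median of -1.45, as the typical SE grew from 0.09 to 0.54.

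RNA quality controls moved with temperature too. For sucrose synthase the 3-prime minus 5-prime gap was 0.84 wider at 13 °C and for glucose-6-phosphate dehydrogenase 0.90 wider (exact two-sided permutation p = 0.1 for either), with 13 °C array 2 the widest for both, and for EF1a and GAPDH the value was higher at 13 °C by 0.54 and 0.43, also with groups apart. It moved the other way for CYP86, by -1.58, from 1.28 at 28 °C to -0.30 at 13 °C (exact p = 0.1), while actin (-0.14) and ubiquitin (-0.071) overlapped between temperatures. The actin 3-prime probe set was below the highest unspiked control, so the actin value is uncertain. For GAPDH, actin and ubiquitin the 3-prime signal was below the 5-prime one at both temperatures. Array medians ranged from 4.99 to 5.04. The list of embryo markers (Em, LEA, Rab15 and wheat germ agglutinin) was at a mean of 11.87 at 13 °C and 10.27 at 28 °C. Of its 10 probe sets, which read 5 genes, 8 were higher and 0 lower, and the 2 that did not pass read Rab15. The shares over all tested probe sets were 18.5% higher and 15.1% lower. All samples are labelled as embryo, and whether these signals follow the amount of embryo tissue was not tested. Of 13 endosperm probe sets, 0 passed, 4 were above the highest unspiked control, and the mean of all 13 was 4.30 and 4.24. The brightest of them, AGP-S, stood at 10.57 and 10.45. Of 3 aleurone and germination probe sets, 2 fell and 0 rose, 2 were above the highest unspiked control, and their mean was 6.29 and 6.80. The fall of amy1, at 3.26 against 4.26, lay below that control at both temperatures. The other was that of an LTP3 probe set (-0.44), and the second LTP3 probe set did not pass (-0.099). The part of RNA quality and of tissue makeup in the tubulin and profilin results was not tested.

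Other genes of growth and division were matched by name. Over all tested probe sets 15.1% fell and 18.5% rose. Of the 1273 probe sets paired with exactly 1 gene, 369 fell and 253 rose. Histones, which package newly made DNA, gave 17 lower, 0 higher and 1 not past of 18 probe sets of 5 genes, with a median difference of -5.04. Those that passed fell by 1.88 to 6.61. The most changed probe set of wcH2B-8 differed by -6.61 ± 0.34 and that of H2A-9 by -6.07 ± 0.25, against levels at 13 °C of 4.45 and 5.94, while H2A-2 was at -5.02 and wcH2B-6 at -2.80. For H2A-2 and this probe set of wcH2B-8 the 13 °C level was below the highest unspiked control, so their size is uncertain. On the list of cell wall names, XTH, which cuts and rejoins xyloglucan in the wall, fell by 2.69 ± 0.11. The beta-glucosidase GLU1A was matched to that list by its name alone, and a role in the wall is not shown here. GLU1A fell by 6.65 ± 0.24, to 5.32, 4.61 and 4.61 on the 13 °C arrays. The last 2 values are below the highest unspiked control, so the size is uncertain. The one folding partner found, hsp16.9A, was below the highest unspiked control at both temperatures. No gene name matched the list of actin and microtubule partners.

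Profiles close to each isotype were searched among 110 probe sets of 69 other named genes above the highest unspiked control, by the root mean square distance of log2 values over the 6 arrays after centring. Nearest to tubb1 was 6-FEH, a fructan exohydrolase, at a distance of 0.10 and a difference of -2.06, followed by a probe set of the histone wcH2B-8 at 0.13 and 1-FEH at 0.22; the 4.08 of 6-FEH at 13 °C was below the highest unspiked control, so its difference and its place are uncertain. Nearest to both tubb3 (0.069) and profilin (0.083) was COMT1, an O-methyltransferase, which fell by 1.27, and both also had the xylanase inhibitor XIP-I and the glutathione transferase GSTZ1 among their 3 nearest genes. For Tubb4 these were the translation factor Eif4B (0.063), the adenine salvage enzyme APRT (0.064) and AdSS (0.098), adenylosuccinate synthetase. The profile of tubb2 lay closest to the immunophilin gene FKBP70 (0.040), the elongation factor gene TEF1 (0.061) and the translation initiation factor eIF-2-beta (0.078), none of which passed the threshold. A proton pump, H+-ATPase, was among the 3 nearest of both TUBA (0.064) and Tubb5 (0.11), along with TSA and LTP3 for the first and DMAS1 and AdSS for the second. Among the cytoskeletal genes themselves, the closest pairs were TUBA with Tubb5 (0.11) and tubb3 with profilin (0.12), and the most distant was tubb1 with tubb2 (0.84). With 6 arrays in 2 groups these distances mostly follow the size of the difference between temperatures.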

How the data were processed

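The authors deposited log2 values computed with RMA, per the submitters' processing notes; version and software are not given in the sources. RMA includes quantile normalization, which hides any change of total mRNA. No scanner file was used, so detection and saturation were not checked, and precision is limited by having 3 arrays per group. Of 61290 probe sets, 111 controls were left out. Names come from the platform annotation and, for 1272 of 1273 paired probe sets, from the RefSeq gene table of assembly IWGSC CS RefSeq v2.1, used for names only.

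Differences were fitted with limma 3.58.1 in R 4.3.3 (lmFit, eBayes) on all 6 arrays without covariates, and the fit was tested on simulated data. Gaps and controls were compared with exact permutation tests, two-sided, in Python 3.11.15 with scipy 1.17.1. The members and lists were chosen with earlier results of these data known. All 12 members are named; other genes follow a rule of the 3 nearest profiles per gene and up to 4 genes per list. A planned search of protein and promoter sequences was not run. The main fit did not pair arrays by replicate number. Deviations from the group mean correlated at 0.012 to 0.044 for same-numbered arrays and at -0.11 to 0.093 for the others. With deviations taken from means of 3 arrays, these values cannot settle whether the numbers mark a pairing.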

Additional observations from a re-analysis of the deposited data

How the results depend on the processing

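Over 13 alternatives, none of the 12 differences changed sign; of 156 values, 145 kept their side of the threshold, 8 lost it (all under control scaling) and 3 gained it (all tubb2). With poly-A control scaling 3002 probe sets passed (2803 lower, 199 higher), and 4 members fell and 0 rose; with hybridisation control scaling 12469 passed (654 higher) and 0 members rose. With the brightest probe set of each gene 6 of 7 fell and 0 rose, and without cross-hybridising suffixes 4 of 6 fell and 1 rose. Both counts of falls are smaller because fewer probe sets were counted. The 0 rises of the first follow from its choice of probe set, since the TUBA probe set that rose is not the brightest of its gene. With the replicate number as a block 10 members fell and 1 rose, and pairing arrays by number left each pair of genes at the smallest possible p of 0.25 or above. Leaving out 1 array gave 10 lower and 1 higher in each case. The change of TUBA minus tubb2, -0.28, turned to 0.57 with all probe sets of a gene averaged and to 1.42 with the other TUBA probe set, since these use the probe set that rose. TUBA minus Tubb5, 0.06, ranged from -0.032 (without 13 °C array 3) to 0.11 with 1 array left out, but was 1.20 with all probe sets averaged and 1.76 with the other TUBA probe set, both with no overlap. Dim probe sets left out changed no count of the cluster or companion probe sets by over 1.5 times.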
